A study of Mus musculus with 24 samples.

Results

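The transcripts described are those of 4 CXC chemokine genes, Cxcl9, Cxcl10, Cxcl11 and Cxcl16, which were found by symbol among the 24273 genes of a normalised expression table. All 4 were measured in each of 24 RNA-seq libraries and all passed a filter on low values that 13901 genes passed. The libraries came from C57BL/6 bone marrow-derived macrophages (BMDMs), grown from marrow in L-cell conditioned medium, which were left untreated (0 h) or stimulated with 100 ng/ml lipopolysaccharide (LPS, a bacterial ligand of TLR4) for 0.5, 1 or 2 h. Cells of the control genotype, labelled LysM, are described as carrying LysM-Cre, and cells labelled FosKO as carrying LysM-Cre with floxed alleles of Fos. Each of the 8 groups had 3 libraries. In LysM-Cre mice the Lyz2 gene, which encodes lysozyme, drives Cre recombinase in myeloid cells, and both genotypes are described as carrying LysM-Cre. The series describes the controls as LysM-Cre alone, whereas the study's text also gives them a floxed Fos allele. The age of the marrow donors was not given in the sources used here, and the labels do not say whether replicates were separate animals, so p-values measure the spread between these libraries.

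Chemokines are small secreted proteins that guide migrating leukocytes. CXCL9, CXCL10 and CXCL11 are ligands of the receptor CXCR3, which is found on activated T cells and NK cells, and their genes are known targets of interferons through STAT and IRF transcription factors. CXCL16 is made as a membrane protein, binds CXCR6 and oxidised lipoprotein, and is released from the cell surface by the metalloproteases ADAM10 and ADAM17. In macrophages, LPS drives IFN-β (Ifnb1) production, and the secreted IFN-β then acts back on the same cells.

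The first 3 genes are neighbours. On GRCm38, Cxcl9 (ENSMUSG00000029417) is a protein-coding gene at chr5:92321347-92328079, Cxcl10 (ENSMUSG00000034855) a protein-coding gene at chr5:92346638-92348889, and Cxcl11 (ENSMUSG00000060183) lies at chr5:92359544-92365485, all on the minus strand. Gaps of 18559 and 10655 bp separate them. Cxcl11 is annotated as a polymorphic pseudogene, and C57BL/6 mice are known to carry a frameshift in it, so its values describe a transcript and not a chemokine. Cxcl16 (ENSMUSG00000018920) is a protein-coding gene elsewhere, at chr11:70453983-70459984 on the minus strand. The transcript numbered first in the annotation has 4 exons for Cxcl9 and Cxcl10 and 5 exons for Cxcl11 and Cxcl16. Cxcl10 and Cxcl11 lie inside Art3, a gene on the plus strand, and the start of Cxcl16 overlaps Zmynd15, also on the plus strand. The reads were strand-specific, but whether counting used the strand is not given in the sources used here.

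The 250 bases before the annotated start of Cxcl9 and Cxcl10 are printed because both genes were higher in the libraries labelled FosKO at all 4 times, and FOS is a part of the transcription factor AP-1. They are from RefSeq on GRCm38.p6, at chr5:92328080-92328329 for Cxcl9 and chr5:92348890-92349139 for Cxcl10, and read 5′ to 3′ along the minus strand. Capitals mark matches to the motifs searched.
Cxcl9: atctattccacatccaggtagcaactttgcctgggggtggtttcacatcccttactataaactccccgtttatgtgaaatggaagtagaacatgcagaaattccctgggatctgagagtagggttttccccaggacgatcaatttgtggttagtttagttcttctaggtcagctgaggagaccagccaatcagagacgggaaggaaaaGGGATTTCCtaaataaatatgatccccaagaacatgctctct
Cxcl10: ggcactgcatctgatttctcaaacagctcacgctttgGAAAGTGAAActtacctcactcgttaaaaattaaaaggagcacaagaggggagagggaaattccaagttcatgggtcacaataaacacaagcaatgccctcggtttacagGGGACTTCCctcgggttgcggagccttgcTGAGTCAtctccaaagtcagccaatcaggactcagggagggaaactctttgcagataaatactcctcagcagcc
The promoters of Cxcl11 and Cxcl16 were not analysed here. On both strands, 4 motifs were searched, namely the interferon-stimulated response element (ISRE, GAAA, any 2 bases and GAAA), an NF-κB motif (GGGANTTCC), the AP-1 motif bound by FOS and JUN dimers (TGANTCA) and the gamma-activated site (GAS, TTCNNNGAA). They were chosen after the promoters had been seen. Cxcl10 held GAAAGTGAAA from -213 to -204, GGGACTTCC from -103 to -95 and TGAGTCA from -74 to -68, counted from the annotated start, and these matches do not overlap. Cxcl9 held GGGATTTCC from -42 to -34 and no match to the other motifs, and neither window held a GAS match. Of 32851 promoter windows of the same length, 2.98% held the ISRE letters, 1.43% the NF-κB letters, 6.75% the AP-1 letters and 7.02% the GAS letters. A match is a description of the sequence, and no match says only that these letters are not in this window.

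Fos, the targeted gene, does not settle the labels. In the LysM libraries the log2 level of Fos averaged 11.11, 13.52, 11.15 and 9.52 at 0, 0.5, 1 and 2 h, and in those labelled FosKO it averaged 12.60, 12.75, 12.78 and 12.80. Its 3 LysM libraries lay between 11.07 and 11.17, 13.43 and 13.57, 11.02 and 11.34, and 9.42 and 9.61 at these times, and the 12 libraries labelled FosKO between 12.41 and 12.93. Fos was thus below the LysM level at 0.5 h and above it at the other times. Gene-level values can include transcript left by a floxed deletion, and which exons were deleted was not analysed here. Il10, an anti-inflammatory cytokine gene, was at 8.08 to 8.31 in the LysM libraries of 2 h and 6.30 to 6.79 in their FosKO-labelled counterparts, where it was lower by 1.70 (adjusted p = 3.76e-09 by limma). With FOS deficiency the paper reports more Ifnb1 mRNA by qRT-PCR and more IFN-β protein by ELISA after LPS. Here Ifnb1 averaged 12.18 in the libraries labelled FosKO and 8.99 in LysM at 1 h, which is the same direction. The paper also reports lower Il10, from RNA-seq of these genotypes. An exchange of labels was not tested. The label rests on the submitters, and every direction below is that of the libraries labelled FosKO. Lyz2, which carries Cre, was 4.89 to 5.17 higher in them on the log2 scale at the 4 times (limma adjusted p of at most 1.17e-19). Whether the genotypes carried the Cre allele alike was not tested. The effects of the Cre allele and of Fos cannot be told apart here. The macrophage markers Adgre1 and Csf1r were abundant in every library, at 14.61 to 15.21 and 14.95 to 15.28. Of the 7 macrophage markers listed, 4 were called higher in FosKO-labelled cells at every time, namely Lyz2, Mertk (by 0.89 to 1.65), Fcgr1 (0.63 to 0.85) and Cd68 (0.14 to 0.22). Adgre1, Csf1r and Itgam were called lower at 0 h (-0.15, -0.14 and -0.19), Itgam also at 0.5 h (-0.25), and Adgre1 and Itgam at 1 h (-0.13 and -0.18). No NK or B cell marker passed the filter and neither did Cd3e, Cd3d or Cd3g. Cd4, the 1 of 5 T cell markers that passed, was 0.36 to 0.44 higher in the libraries labelled FosKO (summed T cell list 7.59 to 7.90 in LysM and 8.01 to 8.45 in FosKO libraries). Kdr was 0.71 to 1.02 higher (summed endothelial list, 3 of 3 passed, 8.37 to 8.75 and 8.98 to 10.02), while Cdh5 and Pecam1 lay at 2.26 to 4.61. Cdh5 was 0.44 and 0.43 higher at 0 and 2 h (called) and was not called at 0.5 and 1 h. Neutrophil markers, 2 of 5 passed, summed to 5.69 to 6.70 and 5.15 to 5.83. Of these, S100a9 was called lower at all 4 times (-1.07 to -0.65) and S100a8 at 0, 1 and 2 h (-0.60 to -0.47). Summed levels were, for dendritic cell markers (3 of 5), 5.11 to 6.98 and 5.09 to 6.53, and for stromal markers (3 of 5) 4.17 to 5.05 and 4.08 to 4.68. Called among them were Xcr1, 0.42 higher at 1 h, Zbtb46, 0.96 lower at 2 h, and Col3a1, 0.53 lower at 2 h. Over all genes tested, 18% to 24.4% were called higher and 15.9% to 20.3% lower at the 4 times, so calls of single markers stand beside these shares. The part of these cells in the results was not tested. The 18S ribosomal RNA gene Rn18s-rs5 was low, at 16.65 to 17.00, in 5 libraries of 0.5 and 1 h and lay between 18.57 and 19.39 in the other 19. How deeply each library was sequenced is not known here, since the table gives normalised log2 values only.

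The 4 genes differed widely in how strongly they were expressed. On a log2 scale per kb of merged exon, Cxcl16 stood at 10.53 ± 0.01 (SD, n = 3) in untreated LysM cells, Cxcl10 at 10.23 ± 0.13, Cxcl9 at 5.07 ± 0.22 and Cxcl11 at 2.75 ± 0.17. These levels placed Cxcl16 at rank 644 and Cxcl10 at rank 799 among 13873 genes, against ranks 9394 and 11967 for Cxcl9 and Cxcl11. After 2 h of LPS Cxcl10 had climbed to rank 37 in LysM cells and rank 26 in cells labelled FosKO. Cxcl9 reached ranks 2896 and 1057, and Cxcl11 ranks 6141 and 4946. Cxcl16 moved little in this order, to ranks 449 and 532. These levels use merged exon lengths from the gene annotation, 2252 bases for Cxcl10 and 3021 for Cxcl16. The transcripts numbered first have 1094 and 2699 bases, so the order of these 2 genes can depend on the length used. An rlog-like normalisation may also pull low genes such as Cxcl11 towards their mean.

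**Figure D1:**
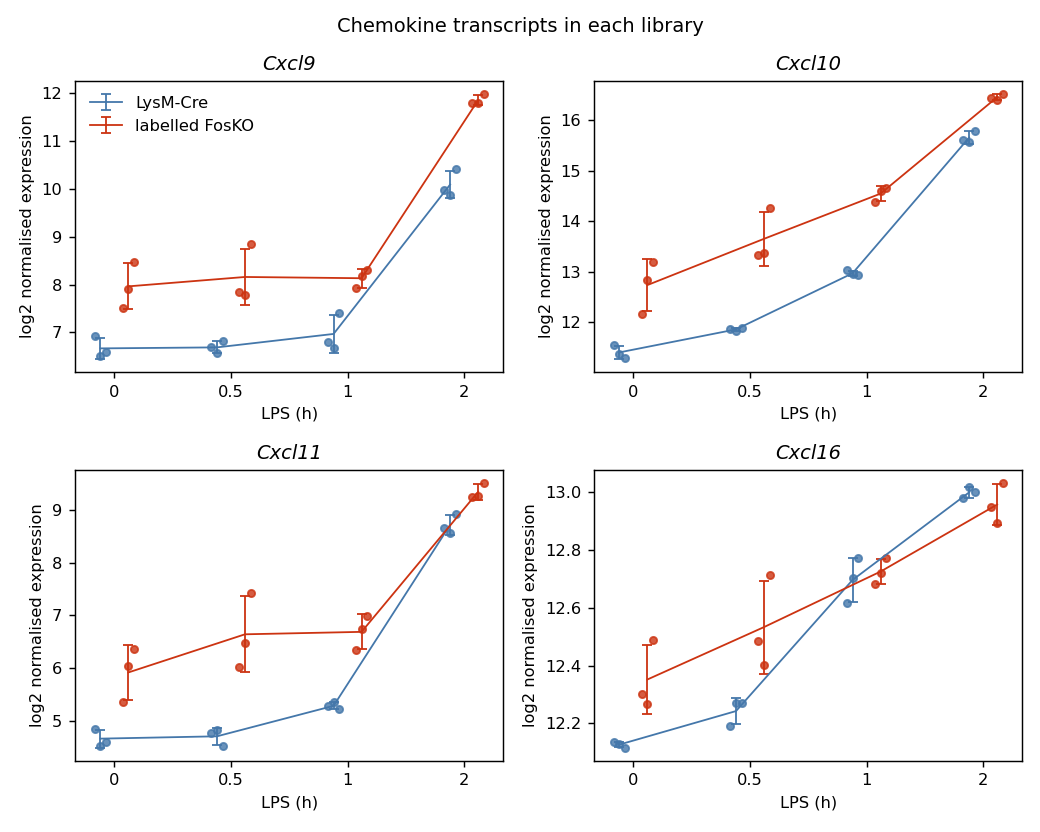
Log2 normalised expression (vertical axis) of the 4 chemokine transcripts against hours of LPS (horizontal axis, evenly spaced), with 1 point per library and lines through the group means with bars of 1 SD (n = 3), blue for LysM-Cre and red for libraries labelled FosKO. At 0 and 0.5 h every red point lies above every blue point in all 4 panels, and at 1 and 2 h the points overlap for Cxcl16 alone. The share of all genes that separate in this way was not computed.

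Cxcl10, the most strongly induced of the set in control cells, was higher in the libraries labelled FosKO before any LPS was given and stayed higher throughout. Its log2 levels in the untreated LysM libraries were 11.54, 11.37 and 11.29, against 12.17, 12.84 and 13.20 in those labelled FosKO. At 0.5 h they were 11.88, 11.82 and 11.88 in LysM and 13.33, 13.37 and 14.27 in the libraries labelled FosKO. The groups did not overlap at either time, and the third library labelled FosKO was the highest at both. At 1 h the levels were 13.03, 12.95 and 12.94 against 14.38, 14.61 and 14.66. At 2 h they were 15.61, 15.58 and 15.80 against 16.46, 16.41 and 16.52, so that every library labelled FosKO again lay above every LysM library. The log2 differences at 0, 0.5, 1 and 2 h were 1.33 ± 0.20 (SE), 1.80 ± 0.20, 1.58 ± 0.20 and 0.80 ± 0.20, or 2.52-, 3.47-, 2.99- and 1.74-fold, with adjusted p-values of 3.07e-05, 5.79e-07, 4.16e-06 and 0.00311 by limma with Benjamini-Hochberg adjustment over the 13901 genes. Untreated cells labelled FosKO, at 12.74 ± 0.52 (SD), overlapped LysM cells that had received LPS for 1 h, at 12.97 ± 0.05.

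Cxcl9 followed a different time course. Its levels in untreated LysM libraries were 6.91, 6.50 and 6.58, against 7.52, 7.90 and 8.47 in those labelled FosKO. At 0.5 h they were 6.69, 6.56 and 6.81 against 7.85, 7.79 and 8.84, and at 1 h 6.81, 6.68 and 7.41 against 7.92, 8.17 and 8.31. Within a genotype the first 3 times overlapped, whereas between the genotypes no library overlapped at any of them. At 2 h the levels were 9.97, 9.88 and 10.42 against 11.78, 11.80 and 11.98. Cxcl9 differed by 1.30 ± 0.25 (SE), 1.47 ± 0.25, 1.16 ± 0.25 and 1.76 ± 0.25 at 0, 0.5, 1 and 2 h, or 2.46-, 2.77-, 2.24- and 3.39-fold (adjusted p = 0.000378, 7.89e-05, 0.00109 and 8.4e-06 by limma). At 2 h the gap for Cxcl9 was thus 1.76, with a 95% interval from 1.24 to 2.29, and that for Cxcl10 was 0.80, with an interval from 0.37 to 1.23. The difference between these 2 gaps was not tested.

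Cxcl11 was the least abundant of the set and had its widest spread in the libraries labelled FosKO at 0.5 h (SD 0.72). Its levels were 4.86, 4.54 and 4.62 in untreated LysM libraries and 5.36, 6.04 and 6.37 in those labelled FosKO. At 0.5 h they were 4.78, 4.84 and 4.53 against 6.02, 6.48 and 7.43, and at 1 h 5.29, 5.36 and 5.22 against 6.34, 6.74 and 6.99. The groups were separate at each of these times, with the highest library at 0 and 0.5 h again the third of those labelled FosKO. At 2 h the levels were 8.65, 8.56 and 8.93 against 9.24, 9.27 and 9.51. The difference was 1.25 ± 0.27 (SE) at 0 h, 1.93 ± 0.27 at 0.5 h and 1.40 ± 0.27 at 1 h, or 2.38-, 3.81- and 2.64-fold (adjusted p = 0.000869, 6.27e-06 and 0.000311 by limma). At 2 h it was 0.62 ± 0.27, with a 95% interval from 0.07 to 1.18, and did not pass the threshold (adjusted p = 0.0628), although the groups did not overlap. The difference at 2 h was called in 4 of 16 alternative fits, for instance with a replicate block (limma adjusted p = 0.0383).

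Cxcl16 was already abundant in untreated cells and differed between the genotypes only a little. Its levels were 12.13, 12.13 and 12.12 in untreated LysM libraries and 12.30, 12.27 and 12.49 in those labelled FosKO. At 0.5 h they were 12.19, 12.27 and 12.27 against 12.49, 12.40 and 12.71. The libraries labelled FosKO lay above LysM at both times, by 0.23 ± 0.06 (SE, 1.17-fold, adjusted p = 0.00806) at 0 h and 0.29 ± 0.06 (1.22-fold, adjusted p = 0.000854) at 0.5 h by limma. Without the third untreated library labelled FosKO the difference at 0 h was 0.157 and was not called (adjusted p = 0.0695). At 1 h the levels were 12.62, 12.70 and 12.77 against 12.68, 12.72 and 12.77. At 2 h they were 12.980, 13.019 and 12.999 against 12.95, 12.89 and 13.03. The groups overlapped at these 2 times, where the difference was 0.03, with a 95% interval from -0.10 to 0.16, and -0.04, with an interval from -0.17 to 0.09. Neither was called. Under quantile normalisation the difference at 1 h turned to -0.0432 (not called), and that at 2 h was -0.193 and called (adjusted p = 0.00344).

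Counted together, 4, 4, 3 and 2 of the 4 transcripts were called higher in FosKO-labelled cells at 0, 0.5, 1 and 2 h. Over all 13901 genes tested, 19.5%, 21.2%, 18% and 24.4% were called higher at these times. The median difference over all genes was 0.00 at each time. How many of all genes had groups without overlap was not computed, so the lack of overlap given above has no such share beside it. The third replicate labelled FosKO was the highest of its group for all 4 transcripts at each of the 4 times. The same 4 libraries were also the highest of their groups for the mean of 50 interferon-stimulated genes, for instance at 12.38 against 11.85 and 12.16 at 0 h and at 12.69 against 12.18 and 12.19 at 0.5 h.

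The differences at 0.5 and 1 h were also read among libraries of like 18S level, where only 1 or 2 libraries a group remain. The values below are differences of means and are given without a test, because a group of 1 library has no spread of its own. Among the libraries of high 18S, the FosKO minus LysM difference at 0.5 h was 1.69 for Cxcl9, 1.97 for Cxcl10, 2.15 for Cxcl11 and 0.33 for Cxcl16. Among those of low 18S it was 1.04, 1.45, 1.49 and 0.22. At 1 h the high 18S libraries gave 1.43, 1.61, 1.57 and 0.13, and the low 18S libraries 0.87, 1.44, 1.05 and -0.05. Cxcl9, Cxcl10 and Cxcl11 thus differed by 0.87 or more on the log2 scale within both sets, whereas the sign for Cxcl16 at 1 h depended on the set.

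**Figure D2:**
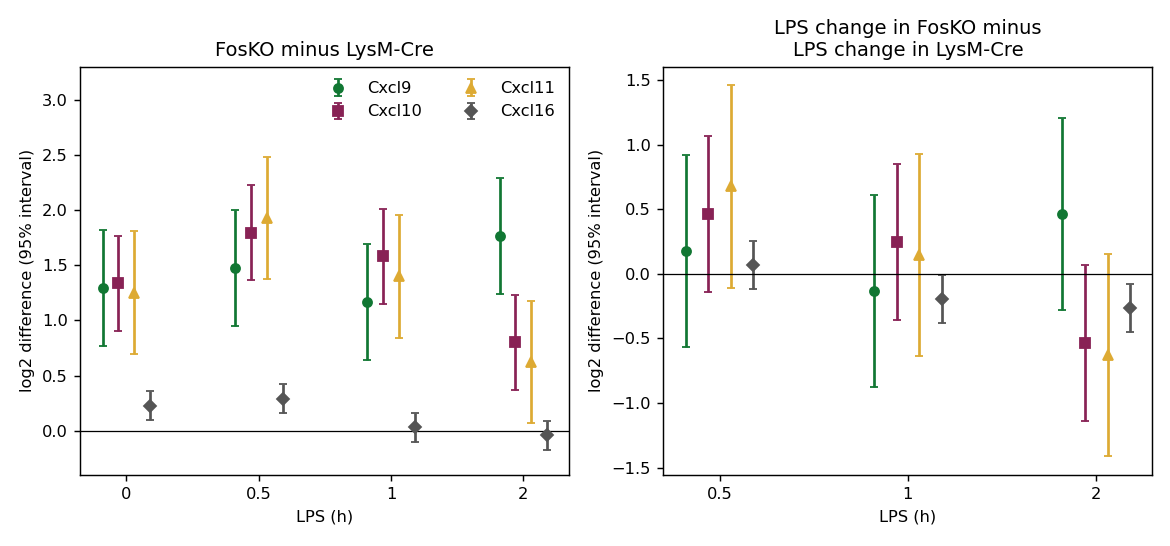
Log2 differences with 95% intervals from limma (vertical axes) for the 4 transcripts against hours of LPS (horizontal axes). The left panel shows libraries labelled FosKO minus LysM, where Cxcl9 goes from 1.30 at 0 h to 1.76 at 2 h and Cxcl10 from 1.33 to 0.80, and the right panel shows the LPS change in the libraries labelled FosKO minus that in LysM, where the intervals for Cxcl16 at 1 and 2 h lie below 0 and only that at 2 h was called after adjustment.

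In control cells LPS raised the 4 transcripts at different speeds. Cxcl10 rose by 1.57 ± 0.20 (SE) at 1 h (2.97-fold, adjusted p = 2.81e-06) and by 4.26 ± 0.20 at 2 h (19.1-fold, adjusted p = 1.71e-13 by limma). Its change at 0.5 h was 0.46 and missed the threshold (adjusted p = 0.244), although the groups did not overlap. Cxcl9 and Cxcl11 had changes of 0.02 and 0.04 after 0.5 h, and of 0.30 and 0.62 after 1 h (adjusted p = 0.388 and 0.0759). For Cxcl11 at 1 h the groups did not overlap, the 95% interval ran from 0.07 to 1.18, and the change was called under quantile normalisation (0.736), with a replicate block, with only the groups compared and with the 18S set as a term. At 2 h Cxcl9 had risen by 3.42 ± 0.25 (10.7-fold, adjusted p = 1.87e-10) and Cxcl11 by 4.04 ± 0.27 (16.5-fold, adjusted p = 2.97e-11). Cxcl16 rose by 0.57 ± 0.06 at 1 h (1.48-fold, adjusted p = 2.94e-07) and 0.87 ± 0.06 at 2 h (1.83-fold, adjusted p = 1.38e-10), after a change of 0.12 at 0.5 h that was not called. Thus 0, 2 and 4 of the 4 transcripts were called higher at 0.5, 1 and 2 h by limma, beside 5.09%, 19.2% and 30.6% of all genes tested, and 1 of the 4, Cxcl10, had an unadjusted p under 0.05 at 0.5 h.

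In the cells labelled FosKO, LPS acted from a higher start. Cxcl10 rose by 0.92 ± 0.20 (SE) at 0.5 h (1.89-fold, adjusted p = 0.00726), by 1.81 ± 0.20 at 1 h (3.51-fold, adjusted p = 4.41e-07) and by 3.72 ± 0.20 at 2 h (13.2-fold, adjusted p = 1.45e-12). Its call at 0.5 h was lost without the first untreated library (0.634, adjusted p = 0.0542) and without the third library of 0.5 h (0.611, adjusted p = 0.0541). With only the groups compared this call was lost as well (0.917, adjusted p = 0.319). The 0.5 h change of Cxcl11, 0.72, missed the threshold (adjusted p = 0.127). Leaving out 1 library moved this change between 0.326 and 1.03, and it was called without the third untreated library (0.947) and without the first library of 0.5 h (1.03). It was also called with a replicate block within genotype (0.721), with the 18S set as a term (0.866) and in the high 18S set (1.03). Cxcl11 rose by 0.77 ± 0.27 at 1 h (adjusted p = 0.0314) and by 3.42 ± 0.27 at 2 h (10.7-fold, adjusted p = 4.33e-10). The call at 1 h came with overlapping libraries and was lost without the first untreated library (0.484, adjusted p = 0.195). It was also lost without the second or the third library of 1 h (0.742 and 0.617, adjusted p = 0.0767 and 0.135). Without the filter and with only the groups compared it was lost too (0.767 each, adjusted p = 0.0523 and 0.0944). Cxcl9 changed by 0.20 and 0.17 at 0.5 and 1 h, neither called (adjusted p = 0.721 and 0.663), and rose by 3.89 ± 0.25 at 2 h (14.8-fold, adjusted p = 2.17e-11). Cxcl16 rose by 0.37 ± 0.06 at 1 h (adjusted p = 7.82e-05) and 0.61 ± 0.06 at 2 h (1.52-fold, adjusted p = 3.93e-08). Its change at 0.5 h, 0.18, was not called (adjusted p = 0.102). That change was called with a replicate block and with a replicate block within genotype (adjusted p = 0.0307 and 0.00498). Called higher were 1, 3 and 4 of the 4 transcripts at the 3 times, against 4.45%, 17.6% and 32.6% of all genes tested, and 3 of the 4 (Cxcl10, Cxcl11 and Cxcl16) had an unadjusted p under 0.05 at 0.5 h. These comparisons share untreated libraries within a genotype.

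Most of the rise in Cxcl9, Cxcl10 and Cxcl11 fell between 1 and 2 h. The step from 1 to 2 h was 3.12 for Cxcl9, 2.69 for Cxcl10 and 3.42 for Cxcl11 in LysM cells, and 3.72, 1.91 and 2.65 in cells labelled FosKO. For Cxcl16 it was 0.30 in LysM, after a step of 0.45 between 0.5 and 1 h, and 0.23 in cells labelled FosKO, after a step of 0.19. These steps are differences of group means and were not tested.

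Whether LPS changed a transcript by a different amount in the 2 genotypes was tested directly. The LPS change in the libraries labelled FosKO minus that in LysM was, at 2 h, 0.47 for Cxcl9 (95% interval -0.28 to 1.21, adjusted p = 0.445), -0.53 for Cxcl10 (-1.14 to 0.07, adjusted p = 0.247) and -0.63 for Cxcl11 (-1.41 to 0.16, adjusted p = 0.304). None of these was called, and each interval includes 0. Leaving out 1 library moved them between 0.245 and 0.720, between -0.817 and -0.302, and between -0.911 and -0.402. The value for Cxcl10 was called without the first untreated library labelled FosKO (-0.817, adjusted p = 0.0301) and under quantile normalisation (-0.782, adjusted p = 0.0499). For Cxcl16 the LPS rise at 2 h was smaller in the libraries labelled FosKO, by 0.27 ± 0.09 (SE, 95% interval of the difference -0.45 to -0.08, adjusted p = 0.0482 by limma), where both genotypes ended at like levels. This call lay at the threshold and was lost in 9 of 12 fits that left out 1 library, for instance the third untreated library labelled FosKO (-0.200, adjusted p = 0.128). At 0.5 and 1 h 0 of the 4 transcripts were called by limma (0 and 1 at an unadjusted p under 0.05), with differences of 0.17 and -0.13 for Cxcl9, 0.46 and 0.24 for Cxcl10, 0.68 and 0.15 for Cxcl11 and 0.07 and -0.20 for Cxcl16. With 1 library left out, the values at 0.5 h ran from 0.156 to 0.694 for Cxcl10 and from 0.282 to 0.989 for Cxcl11, and at 1 h both changed sign (from -0.0384 to 0.477 and from -0.137 to 0.372), as did those of Cxcl9 at both times and of Cxcl16 at 0.5 h. Over all genes tested 0.115%, 1.22% and 15% were called in either direction at 0.5, 1 and 2 h.

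The interferon genes showed another order in time. Ifnb1, the gene of IFN-β, was at 6.05, 6.04 and 6.14 in untreated LysM libraries and at 6.10, 6.15 and 6.26 in those labelled FosKO, a difference of 0.10 that was not called (adjusted p = 0.609). The cells labelled FosKO had 1.69 more of it at 0.5 h, 3.18 more at 1 h and 3.00 more at 2 h on the log2 scale (adjusted p = 1.99e-09, 1.45e-13 and 3.01e-13 by limma). Cxcl9, Cxcl10 and Cxcl11 were thus called higher at 0 h, when Ifnb1 was not. The lack of a call does not show equal Ifnb1 levels. The values resemble a regularised log, which may understate a difference between the low untreated levels. Of 21 listed interferon genes 17 were in the table and 11 were tested, but 6 of the 11 would not have passed the filter on low values without the libraries labelled FosKO, so a count over all of them is not given. The other 5 (Ifnb1, Ifna1, Ifna2, Ifna4 and Ifna5) passed on the LysM libraries alone, and 0, 1, 5 and 5 of them were called higher at 0, 0.5, 1 and 2 h by limma (0 at an unadjusted p under 0.05 at 0 h), beside 19.5%, 21.2%, 18% and 24.4% of all genes tested. Interferon alpha genes are near-identical and their reads may be shared.

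Interferon-stimulated genes, which encode antiviral and signalling proteins, were higher at every time in the libraries labelled FosKO. All 50 listed genes were called higher there by limma, beside 19.5%, 21.2%, 18% and 24.4% of all genes tested, and their medians were 0.96, 1.12, 0.98 and 0.88, beside 0.00 for all genes. Cxcl9, Cxcl10 and Cxcl11 were not in that list. The list was chosen with earlier results of these data known, so the count of 50 is not independent evidence. For unstimulated FOS-deficient cells the paper reports a rise in a subset of its own set of such genes. At 2 h the list ran from 0.38 for Rtp4 and 0.39 for Mx2 to 1.66 for Ifit3b and 1.81 for Ms4a4c. LPS raised 0, 6 and 46 of the 50 in LysM cells at 0.5, 1 and 2 h beside 5.09%, 19.2% and 30.6% of all genes, and 1, 8 and 47 in cells labelled FosKO, beside 4.45%, 17.6% and 32.6%. At an unadjusted p under 0.05 it raised 1 in LysM cells and 12 in cells labelled FosKO at 0.5 h. These LPS counts depend on the scaling, since under quantile normalisation 4 were called higher and 13 lower at 1 h in LysM cells, 6 higher and 9 lower at 1 h in cells labelled FosKO, and 39 and 34 higher at 2 h.

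**Figure D3:**
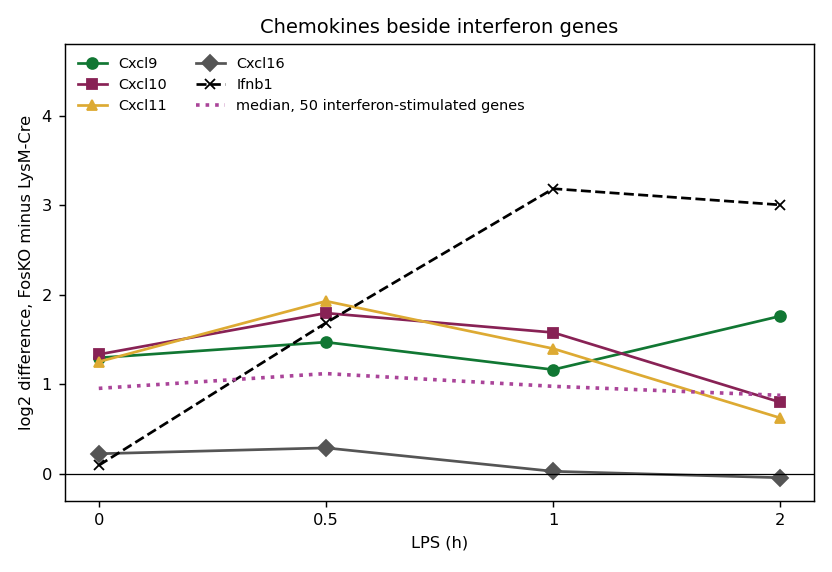
Log2 difference between libraries labelled FosKO and LysM (vertical axis) against hours of LPS (horizontal axis) for the 4 chemokine transcripts (solid), Ifnb1 (dashed) and the median of 50 interferon-stimulated genes (dotted). Cxcl9, Cxcl10 and Cxcl11 start at 1.25 to 1.33 at 0 h, where Ifnb1 is at 0.10, and Ifnb1 reaches 3.18 at 1 h.

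The signalling genes between interferon and its targets were listed as a group of 26. Of these, 19, 20, 11 and 15 had a called rise in FosKO-labelled cells at 0, 0.5, 1 and 2 h, and 1, 1, 3 and 3 a called fall, beside 19.5%, 21.2%, 18% and 24.4% of all genes called higher and 15.9%, 19.7%, 15.9% and 20.3% called lower. Under quantile normalisation 14, 17, 10 and 11 were called higher and 3, 4, 5 and 5 lower, and the median at 2 h was 0.02 in place of 0.17. Irf7, a transcription factor that amplifies interferon production, was 1.20, 1.44, 1.21 and 1.05 higher. Stat2, which carries the signal from the type I interferon receptor to the nucleus, was 0.93, 1.21, 1.08 and 0.57 higher. All of these were called. Irf1, which acts downstream of IFN-γ and LPS, was 0.61, 0.33 and 0.35 higher at 0, 0.5 and 2 h, and its difference of 0.22 at 1 h was not called. Irf8, a macrophage IRF factor, was 0.11, 0.14, 0.31 and 1.33 higher, all called, so that its gap at 2 h exceeded those at the earlier times. Ifnar1, a chain of the type I interferon receptor, was 0.17 and 0.40 lower at 1 and 2 h, and Ifngr1, of the IFN-γ receptor, 0.18, 0.16 and 0.12 lower at 0, 0.5 and 1 h. Irf3 was not called at any time.

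Receptors and processing enzymes formed a list of 10 genes, of which 8 were in the table and 5 were tested. Cxcr3, the receptor of CXCL9 and CXCL10, was lower in the libraries labelled FosKO, by 0.59, 0.68 and 0.49 at 0, 0.5 and 1 h, and its value at 2 h, -0.16, was not called. Cxcr6, the receptor of CXCL16, did not pass the filter and lay at 0.72 to 1.14 in every library. Adam17 was 0.15 and 0.26 higher at 0 and 0.5 h and was not called at 1 and 2 h, as was the case for Cxcl16. Adam10, which also releases CXCL16, was called only at 2 h, at 0.10. Rhbdf2, whose product brings ADAM17 to the cell surface, was 0.33 to 0.46 higher at the 4 times. Dpp4, a peptidase that trims CXCL10, was not called. Under quantile normalisation 1 of the 5 tested genes was called higher at 0 h and 1 at 2 h, in place of 2 at each. At 2 h 1 was then called lower, in place of 0. Without quantile normalisation, 19.5% and 24.4% of all genes tested were called higher at 0 and 2 h, and 20.3% lower at 2 h. LPS also raised Adam17, by 0.39 and 0.68 at 1 and 2 h in LysM cells and by 0.31 and 0.56 in cells labelled FosKO.

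Other CXC chemokines were called in both directions. Of 11 listed genes 8 were in the table and 6 were tested, with 1, 0, 0 and 2 called higher and 2, 3, 3 and 2 lower at the 4 times, and medians of 0.06, -0.22, -0.27 and -0.19. Over all genes 18% to 24.4% were called higher and 15.9% to 20.3% lower. At 2 h Cxcl3, a neutrophil chemoattractant, was 1.20 lower in the libraries labelled FosKO and Pf4, platelet factor 4, was 0.27 lower. Cxcl2, another neutrophil chemoattractant, was 0.47 higher and Cxcl14 0.31 higher.

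Genes beside the 4 transcripts were examined within 100 kb. Around Cxcl9, Cxcl10 and Cxcl11, 11 further genes were annotated and 5 tested, and 2, 3, 3 and 2 of them were called higher at the 4 times in cells labelled FosKO, with 1 called lower at each, against all-gene shares of 18% to 24.4% higher and 15.9% to 20.3% lower. The neighbour with a fall was Naaa, a lysosomal amidase, at -0.54, -0.46, -0.55 and -0.46. Art3, which encloses Cxcl10 and Cxcl11, differed by 0.27, 0.48, 0.25 and 0.19, of which only that at 0.5 h was called (adjusted p = 0.0239), and LPS raised it by 1.49 in LysM cells and 1.41 in cells labelled FosKO at 2 h. Art3 stayed at a low level, 2.56 to 4.52, below every library of Cxcl10 and Cxcl11 at the same time. Nup54, a nuclear pore protein gene, was 0.14, 0.25 and 0.42 higher at 0.5, 1 and 2 h. Around Cxcl16, 16 genes were annotated and 7 tested, with 2, 4, 2 and 2 called higher and 0, 0, 0 and 1 lower. Psmb6, a proteasome subunit gene, was 0.41, 0.39, 0.35 and 0.31 higher, and Zmynd15, which overlaps Cxcl16, was called at 0.5 h alone, with a difference of 0.28 (adjusted p = 0.0378). None of the 12 tested neighbours differed as much as Cxcl9, Cxcl10 or Cxcl11 at the same time. The plot of the locus shows this at 0 and 2 h for the 5 tested around Cxcl9, Cxcl10 and Cxcl11.

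**Figure D4:**
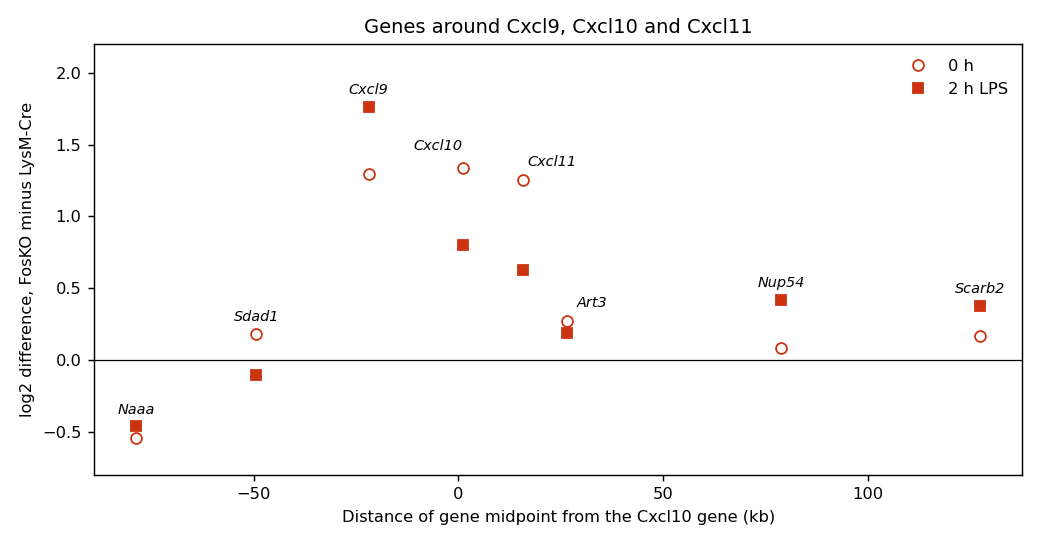
Log2 difference between libraries labelled FosKO and LysM (vertical axis) for Cxcl9, Cxcl10, Cxcl11 and the 5 tested genes within 100 kb, against the distance of each gene's midpoint from the lower end of Cxcl10 in kb (horizontal axis), with open circles for 0 h and filled squares for 2 h. These 3 transcripts lie between 0.62 and 1.76, and the neighbours between -0.54 and 0.42.

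The genes with the most similar pattern differed between the 4 transcripts. Over the 24 libraries, which share genotypes and times, Pearson's r was 0.93 between Cxcl9 and Cxcl10, 0.97 between Cxcl9 and Cxcl11 and 0.97 between Cxcl10 and Cxcl11. With Cxcl16 it was 0.80, 0.93 and 0.86. After the group means were removed, the deviations of all 4 transcripts still moved together, at r of 0.85 for Cxcl9 and Cxcl10, 0.79 for Cxcl9 and Cxcl11 and 0.92 for Cxcl10 and Cxcl11. For Cxcl16 the r was 0.79 with Cxcl9, 0.70 with Cxcl10 and 0.65 with Cxcl11. Outside the set, the closest genes to Cxcl10 were Ccdc88b (r = 0.994), Trex1, Gbp5, Snx20 and Myd88. Trex1, a DNA exonuclease, and Gbp5, an interferon-inducible GTPase, both passed the threshold, with higher levels in FosKO-labelled libraries, at each time. Those closest to Cxcl9 were Ythdf1 (r = 0.991), Rmdn3, Inpp5b, Whamm and Stau1. For Cxcl11 they were Snn (r = 0.994), Nos2, Serp1, Slfn8 and Etv6, and for Cxcl16 Tlr2 (r = 0.982), H2-Q6, Acsl1, Adam17 and Relb. None of the 20 genes was shared between 2 of the lists. These values describe likeness over 24 libraries that the 8 groups dominate, and no p was computed.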

How the data were processed

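BMDM RNA went into TruSeq libraries for strand-specific, single-end HiSeq 2500 sequencing. The authors derived gene counts with STAR 2.5.2a and RSEM 1.2.31 on mm10 (GRCm38), and the submitters' processing notes name DESeq2 1.16.1. The deposited values are log2 normalised expression, 1 per gene and library, between -2.22 and 19.39, with no counts. The study gives a typical yield of reads but none per library, so the depth of each library is unknown and precision rests on the 3 libraries per group. They resemble a regularised log, which would understate differences of low genes. The methods name RefSeq genes, whereas the table holds Ensembl identifiers.

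All 24 libraries entered 1 limma fit (limma 3.58.1, R 4.3.3) with 8 group means, no other term, a variance trend and 16 residual degrees of freedom. Genes entered the test when 3 or more libraries had a linear value (2 raised to the log2 value) of 5 or more. P-values of 13 comparisons were adjusted by the Benjamini-Hochberg method over all 13901 genes, and an adjusted p under 0.05 was called. An exact permutation test of 3 against 3 cannot give a two-sided p below 0.1 and was not used. On simulated data for FosKO against LysM at 2 h with 13901 genes, the fit recovered 95% of log2 changes of 1 and 83% of 0.5, with 10 false calls among 188.

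The 4 transcripts and all lists were chosen with earlier results of these data known. Named genes are the 4, those of the interferon, signalling and receptor lists, the 2 highest and 2 lowest interferon-stimulated and other CXC genes at 2 h, the 5 genes most correlated with each, neighbours within 100 kb, and checks of the libraries (Fos, Lyz2, Rn18s-rs5, markers). The markers of other cells and the gene Il10 were named after their values were seen. Alternatives covered scaling, a pseudocount of 1, filters (none, or 20), no trend, replicate blocks, fewer groups, the 18S sets and leaving out each library.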

Additional observations from a re-analysis of the deposited data

Results flagged for a closer look

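The LPS change of Cxcl16 at 2 h differed between the genotypes by -0.2675 on the log2 scale (the change in the libraries labelled FosKO minus that in LysM, limma contrast of contrasts, adjusted p = 0.0482). It was singled out because the difference between the 2 genotypes was itself tested and passed the threshold. The call was lost in 9 of 12 fits that left out 1 library (-0.200 and adjusted p = 0.128 without the third untreated library labelled FosKO), and also with equal medians (-0.243), without the filter, without the variance trend and in the high 18S set (-0.268 each). Cxcl16 rose in both genotypes, by 0.87 in LysM cells and by 0.61 in cells labelled FosKO, from untreated levels of 12.13 ± 0.01 and 12.35 ± 0.12 (SD, n = 3) to 12.999 ± 0.019 and 12.96 ± 0.07.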

How the results depend on the processing

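The FosKO minus LysM difference was called for Cxcl9 and Cxcl10 at all 4 times, and for Cxcl11 at 0, 0.5 and 1 h, in all 16 alternatives run for each. These include the high 18S set, which leaves 1 LysM library at 1 h, assumed there to vary like the other groups. The difference of Cxcl11 at 2 h, 0.625, ran from 0.541 to 0.732 and was called in 4 of 16 (adjusted p from 0.000579 to 0.168), which were the fits with the replicate block (adjusted p = 0.0383), with only the groups compared, with the 18S set as a term (0.0336) and with the high 18S set only (0.039). A pseudocount of 1 and a filter at 20 changed no call of the 4 transcripts. The cause of each change below was not tested.

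Under quantile normalisation Cxcl16 was at -0.0432 at 1 h (adjusted p = 0.545) and at -0.193 at 2 h, which was called (adjusted p = 0.00344). The change of Cxcl11 with LPS in LysM at 1 h was then 0.736, and the difference in response of Cxcl10 at 2 h -0.782 (adjusted p = 0.0499), both called. The difference in response of Cxcl16 at 2 h lost its call with equal medians (-0.243), without the filter, without the variance trend and in the high 18S set (-0.268 each). Without the filter Cxcl11 in FosKO at 1 h was 0.767 and not called.

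The replicate numbers were not shown to pair the libraries: of 36 pairs of the same genotype and number 12 had deviations correlated above 0.1, with a median r of 0.063, against 4 of 72 pairs with different numbers, with a median of -0.031. With the replicate block, the LPS changes of Cxcl11 in LysM at 1 h (0.621) and of Cxcl16 in FosKO at 0.5 h (0.181) were called. With the replicate block within genotype the same 2 were called, and Cxcl11 in FosKO at 0.5 h (0.721) as well. The block changed no other call of the 4 transcripts besides that of Cxcl11 at 2 h given above. With only the groups compared, the LPS changes in LysM of Cxcl10 (0.456) and Cxcl16 (0.116) at 0.5 h and of Cxcl11 at 1 h (0.621) were called, and those in FosKO of Cxcl10 at 0.5 h (0.917, adjusted p = 0.319) and Cxcl11 at 1 h (0.767, adjusted p = 0.0944) were not. With the 18S term Cxcl11 was called in LysM at 1 h (0.911) and in FosKO at 0.5 h (0.866), and in the high 18S set the latter was 1.03 and called. In that set the LPS change of Cxcl9 in LysM at 0.5 h was -0.0405 and its difference in response at 1 h 0.134, both of the other sign and neither called.

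Leaving out 1 library at a time, these results changed a call or sign or moved by more than 1.5 times. FosKO minus LysM ran from 0.157 to 0.268 for Cxcl16 at 0 h and from -0.0111 to 0.0663 at 1 h. At 2 h its range was -0.0797 to -0.00977. LPS changes in LysM at 0.5 h ran from -0.0604 to 0.146 for Cxcl9 and from -0.0229 to 0.139 for Cxcl11, and at 1 h from 0.0804 to 0.444 for Cxcl9. In FosKO at 0.5 h they ran from -0.144 to 0.450 for Cxcl9, 0.611 to 1.15 for Cxcl10, 0.326 to 1.03 for Cxcl11 (called without the third untreated library or the first of 0.5 h) and 0.0917 to 0.249 for Cxcl16 (called without the third untreated library or the second of 0.5 h). At 1 h they ran from -0.0512 to 0.424 for Cxcl9 and 0.484 to 0.993 for Cxcl11. Differences in response ran from -0.165 to 0.429 for Cxcl9, 0.156 to 0.694 for Cxcl10, 0.282 to 0.989 for Cxcl11 and -0.0242 to 0.133 for Cxcl16 at 0.5 h, from -0.353 to 0.122 for Cxcl9, -0.0384 to 0.477 for Cxcl10, -0.137 to 0.372 for Cxcl11 and -0.239 to -0.128 for Cxcl16 at 1 h, and from 0.245 to 0.720 for Cxcl9, -0.817 to -0.302 for Cxcl10, -0.911 to -0.402 for Cxcl11 and -0.310 to -0.200 for Cxcl16 at 2 h. That of Cxcl10 was called without the first untreated library labelled FosKO (-0.817, adjusted p = 0.0301).

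Counts over all genes moved by more than 1.5 times in these cases. The difference in response gave 16 calls at 0.5 h, against 25 with quantile normalisation or the block within genotype, 6 with only the groups compared, 9 in the high 18S set and 9 and 10 without the third or second LysM library of 0.5 h. At 1 h it gave 169, against 112 and 93 with only the groups compared and in the high 18S set. LPS in FosKO at 0.5 h gave 823, against 301 with only the groups compared and 542 without the third library of 0.5 h. In the high 18S set, where the 1 LysM library of 1 h has no spread of its own, FosKO against LysM at 1 h gave 2994 in place of 4708, and LPS in LysM at 1 h 3009 in place of 4970. Across 4 scaling and 18S settings the interferon-stimulated genes called higher in FosKO than in LysM at 2 h numbered 48 to 50, whereas their LPS counts moved with quantile normalisation as given above.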
